A study of Homo sapiens with 18 samples.

Results

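The genes described here are the homeobox transcription factors of Cal51, a human breast cancer cell line, after 8 h with fenofibrate and ezetimibe together. The 36 members are all rows whose transcription factor family is given as Homeobox in the authors' deposited table of both drugs against DMSO, out of 3508 genes in that table and 282 with any family name. Fenofibrate lowers blood lipids through the nuclear receptor PPARα, ezetimibe blocks cholesterol uptake through NPC1L1, and DMSO is a solvent. The tables come from 4 treatment groups of 3 RNA sequencing libraries each, namely DMSO, fenofibrate alone, ezetimibe alone and both drugs (here the combination), all from Cal51 cells and all treated for 8 h. The labels name no further genotype or dose for these groups. The other 6 of the 18 libraries, from PKM2 knockout cells and their control, were not analysed here.

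Homeobox genes encode transcription factors that bind DNA through a homeodomain and set cell identity during development. Those of the 4 HOX clusters lie side by side on their chromosomes and mark positions along the body axis, and PBX proteins bind DNA together with HOX proteins. Most other homeobox genes are scattered singly or in pairs and act in particular organs, such as the pancreas, limb, eye or nervous system.

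Every gene in the table differs at least 2 times between combination and DMSO, at an adjusted p under 0.05, in the authors' comparison of the same libraries. Being a member therefore already required a difference between combination and DMSO, and all values of that contrast are descriptions that support nothing on their own. Nothing is known here of homeobox genes that are not listed. The members nearest to the listing threshold in each direction were, in the authors' deposited table, HMBOX1 at a log2 fold change of 1.19 and LHX2 at -1.34, and values just outside it were not used here. Values are normalised read counts, the mean ± SD is over 3 libraries, and log2 fold changes ± SE are from limma on log2 of the value plus 1. Reads in the listed genes came to 2550718 to 3265200 per library, and the total depth is unknown. The labels do not say that the 3 libraries of a group came from separate cultures, so the spread between them may be technical. In these bulk samples fewer cells expressing a gene and less RNA per cell cannot be told apart.

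Sets of neighbouring genes moved in the combination, and sequences upstream of RefSeq starts are shown for 2 members of the HOXA cluster, which moved together, and for the neighbours HMX3 and HMX2, which moved apart. Each is the 250 bases before the most upstream RefSeq start on build GRCh38.p14, read 5′ to 3′ on the gene's strand, and capitals mark the letters CCAAT or their reverse complement ATTGG. HOXA6 is at chr7:27147775-27148024 and HOXA13 at chr7:27200092-27200341, both on the minus strand. The HOXA6 window lies wholly inside the HOXA6 gene as the deposited table places it, which begins 2579 bases further upstream, and the other windows share 8 to 15 bases with their genes. HMX3 is at chr10:123135720-123135969 and HMX2 at chr10:123147886-123148135, both on the plus strand.
HOXA6: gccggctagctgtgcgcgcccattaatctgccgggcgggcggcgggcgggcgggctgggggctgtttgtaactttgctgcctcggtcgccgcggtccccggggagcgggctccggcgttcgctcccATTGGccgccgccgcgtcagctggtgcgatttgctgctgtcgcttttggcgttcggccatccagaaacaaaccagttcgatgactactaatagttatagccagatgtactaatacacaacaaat
HOXA13: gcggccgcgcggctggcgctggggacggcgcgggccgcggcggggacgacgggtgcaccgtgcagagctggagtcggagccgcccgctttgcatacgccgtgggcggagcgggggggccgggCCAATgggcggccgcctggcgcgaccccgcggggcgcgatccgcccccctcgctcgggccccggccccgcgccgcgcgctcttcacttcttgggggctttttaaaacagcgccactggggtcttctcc
HMX3: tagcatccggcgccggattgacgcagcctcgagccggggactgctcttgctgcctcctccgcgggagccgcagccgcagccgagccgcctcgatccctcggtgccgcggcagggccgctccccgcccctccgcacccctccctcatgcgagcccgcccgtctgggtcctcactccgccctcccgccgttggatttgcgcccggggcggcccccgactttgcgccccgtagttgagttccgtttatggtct
HMX2: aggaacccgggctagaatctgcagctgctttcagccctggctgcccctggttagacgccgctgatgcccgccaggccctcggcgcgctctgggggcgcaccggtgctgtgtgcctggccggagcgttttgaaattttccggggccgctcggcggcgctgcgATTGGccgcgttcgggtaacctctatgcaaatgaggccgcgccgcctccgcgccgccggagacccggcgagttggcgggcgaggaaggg

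The HOXA6, HOXA13 and HMX2 windows each held CCAAT or its complement once, beginning 124, 128 and 89 bases before the start, and the HMX3 window held none. RefSeq windows were found for 23 of the 36 members, with 34 windows because some genes have several starts. CCAAT was in 21 of those 34 windows, in 9 of the 12 of genes that fell and 12 of the 22 of genes that rose, against 32.0% of all 35116 windows of this length. The other motifs searched, on both strands, were rare in the members. The cyclic AMP element TGACGTCA was in 1 window (1.65% of all windows), TGANTCA of AP-1 in 2 (6.57%), the E-box CACGTG in 1 (6.34%), TAATTA of homeodomains in 1 (4.35%) and TATAAA in 4 (10.7%). TGATGCAA of ATF4, TGACGTGG of the unfolded protein response, TTTGGCGC and TTTCGCGC of E2F and the endoplasmic reticulum stress element, CCAAT and CCACG with any 9 bases between them, were in 0 of the 34. The median GC content of the windows was 65.4% for members that fell, 65.2% for members that rose and 58% for all windows. The windows come from 10 genes that fell and 13 that rose, so windows of 1 gene are not separate units. All windows were not matched to the members for GC content, and no share was tested. These matches are descriptions of the letters and not of binding.

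Of the 36 members 22 were higher and 14 lower with the combination. The share that was higher, 61.1%, lay near the 58.7% of all genes in the table (41.3% were lower) and the 62.8% of all listed transcription factors. Limma called all 36 (edgeR and DESeq2 on the recovered reads did too), and the share of the whole table called was 100% by limma, 100% by edgeR and 99.9% by DESeq2. No library of one group overlapped the other in any of the 36, as in 99.0% of the table. The median log2 fold change was 1.41 over the members and 1.16 over all genes. The plot of members by library shows the levels behind the medians. DMSO means of the 14 members that fell ran from 52.0 to 10246.5 (median 331), and those of the 22 that rose from 0 to 1183 (median 8.48).

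**Figure D1:**
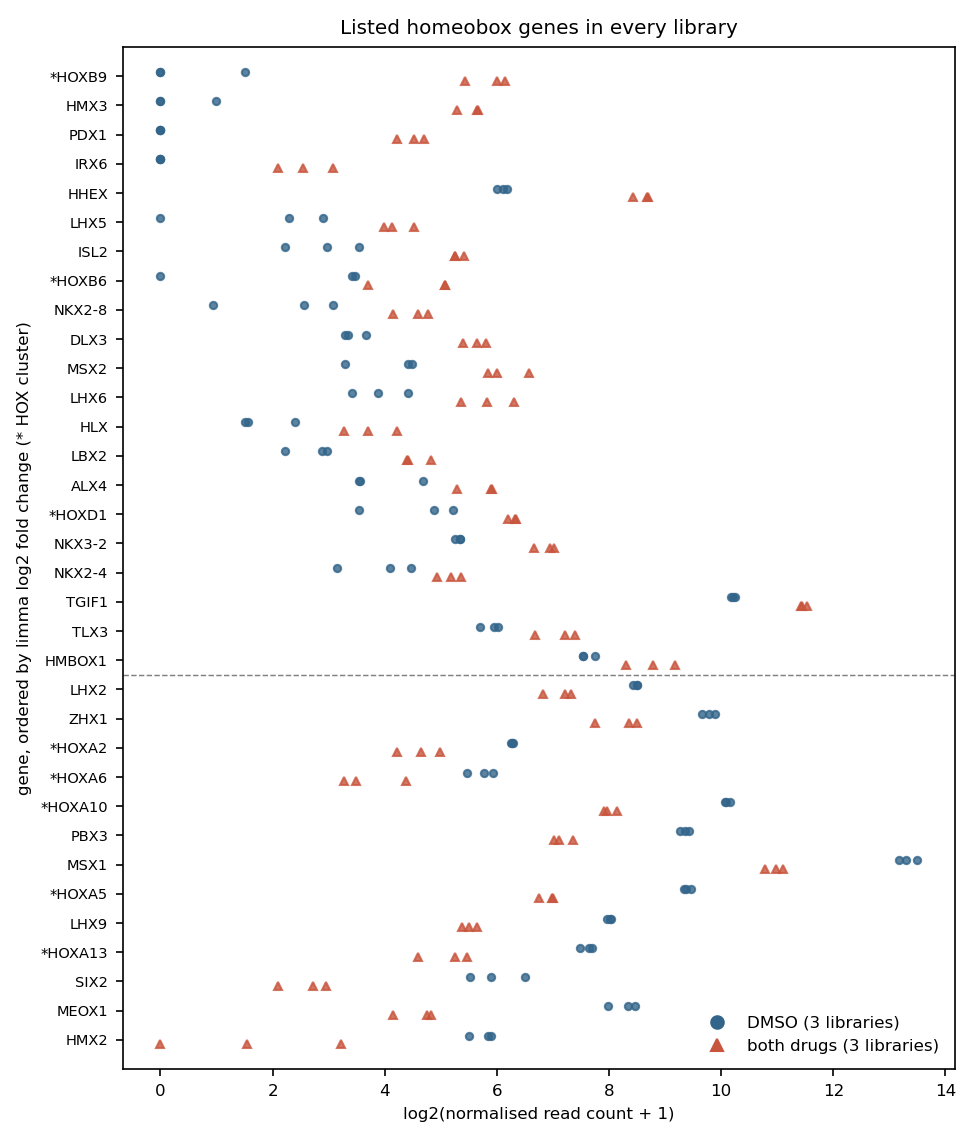
Each row is 1 of 34 listed homeobox genes, ordered by its limma log2 fold change, and the x axis is log2 of the normalised read count plus 1 in each library (circles, 3 DMSO libraries; triangles, 3 libraries with both drugs; asterisks, HOX cluster genes). The 21 genes above the dashed line were higher with both drugs and the 13 below it lower, with no overlap between the groups in any row.

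Listed genes of the HOX clusters moved in opposite directions. Of 39 HOX genes 8 were listed, and all 5 of the HOXA cluster were lower while both of HOXB and the 1 of HOXD were higher. By cluster this was 5 of 11 HOXA genes, 2 of 10 HOXB genes, 1 of 9 HOXD genes and 0 of 9 HOXC genes. The HOXA members had DMSO means from 52.0 to 1097, and HOXB9, HOXB6 and HOXD1 had 0.612, 6.57 and 25.1. All members with a DMSO mean under 50 were higher, a split that the listing itself favours. The split by cluster therefore coincides with a split by starting level, and neither was tested. None of the 39 was in either single-drug table. The median log2 fold change was -1.83 over the 8 HOX genes and 1.66 over the 28 other members. Among members with a mean of at least 50 over the 6 libraries the medians were -2.09 and -1.46, so the other members no longer pointed the opposite way.

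The 5 HOXA genes span 99753 bases of chromosome 7. HOXA10, known for roles in the uterus and in blood precursors (chromosome 7, 27170591 to 27180261), had 1088, 1067 and 1137 normalised reads in DMSO and 283, 241 and 249 in the combination (log2 -2.09 ± 0.11). HOXA5, a regulator of lung and skeletal patterning (27141052 to 27143668), went from 648, 662 and 703 to 127, 126 and 106 (log2 -2.48 ± 0.13). HOXA13, which patterns the end of the limb and the genital tract (27193503 to 27200106), went from 177, 198 and 207 to 23.0, 37.1 and 43.1 (log2 -2.51 ± 0.25). The levels left in the combination were 23.5%, 17.9% and 17.7% of DMSO for these genes, and their replicates were tight against the gap.

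HOXA2 and HOXA6 fell from lower levels. HOXA2, which patterns the hindbrain and the second branchial arch (27100354 to 27102811), had 77.2, 76.2 and 74.7 in DMSO and 30.7, 17.6 and 23.9 in the combination (log2 -1.65 ± 0.27). HOXA6 (27145396 to 27150603) had 43.0, 59.7 and 53.4 in DMSO and 19.7, 10.2 and 8.62 in the combination (log2 -2.01 ± 0.35). The combination kept 31.7% of the DMSO level for HOXA2 and 24.7% for HOXA6. Of the 26 noncoding RNAs of the HOX clusters on the list used, 2 were in the table, both antisense to HOXA genes and both lower. HOXA-AS3, which overlaps HOXA5 and HOXA6, went from 42.0 ± 10.0 to 8.69 ± 2.24, and HOXA-AS2 from 119 ± 24.1 to 45.4 ± 7.15. HOXA5, HOXA6 and HOXA10 also overlap other HOXA genes on their own strand. No source used here says whether counting used strand, so reads of overlapping genes and their antisense partners cannot be told apart.

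The 3 HOX genes that rose came from low DMSO levels. HOXB9 (chromosome 17, 48621159 to 48626356) had 0, 1.84 and 0 in DMSO, 2 reads in all, and 70.1, 63.0 and 42.1 in the combination, a ratio of 95.5 with a 95% exact counting interval from 24.1 to 736. HOXD1 (chromosome 2, 176188579 to 176190907) had 36.1, 28.5 and 10.7 in DMSO and 72.3, 79.7 and 79.5 in the combination, 3.08-fold higher. Without DMSO replicate 3 the log2 fold change of HOXD1 went from 1.74 to 1.24. HOXB6 (chromosome 17, 48595751 to 48604992) had 0, 10.1 and 9.61 in DMSO and 32.9, 12.0 and 32.6 in the combination, 3.93-fold higher. These 3 genes also overlap others. HOXB9 overlaps HOXB7 and HOXB6 overlaps HOXB3 on their own strand, and HOXB6 and HOXD1 overlap HOXB-AS3 and HAGLR on the opposite strand. Their reads therefore carry the same limit as those of the HOXA genes. HOXB6 is the least firm member. Leaving out DMSO replicate 1 took its log2 fold change from 2.33 to 1.18. Its limma adjusted p was 0.0801 without combination replicate 1 and 0.0801 without combination replicate 3, against 0.01996 with all libraries.

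**Figure D2:**
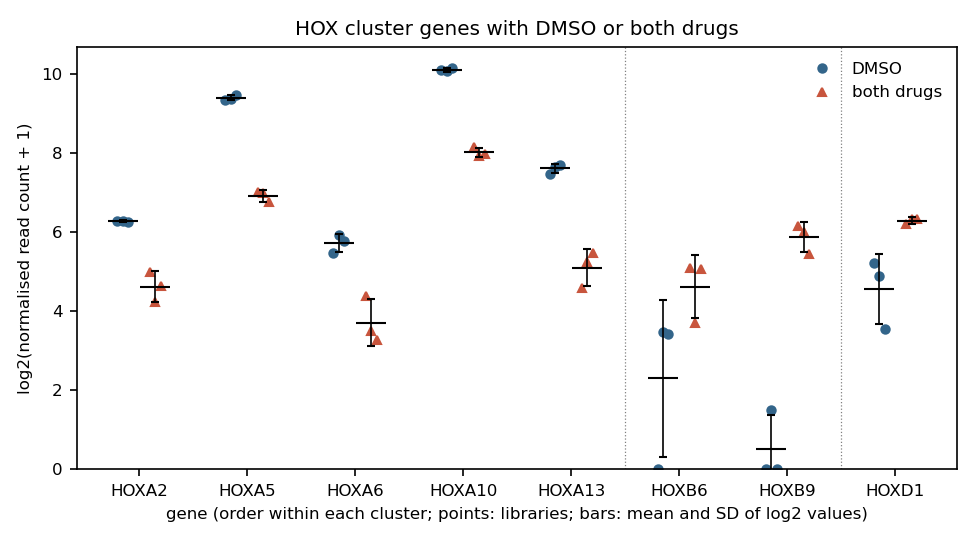
The y axis is log2 of the normalised read count plus 1 and the x axis the 8 listed HOX genes in their order within each cluster (circles, DMSO libraries; triangles, libraries with both drugs; bars, mean and SD of the log2 values over 3 libraries). The 5 HOXA genes sit lower with both drugs, and HOXB6, HOXB9 and HOXD1 sit higher.

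PBX3, a DNA-binding partner of HOX proteins from the TALE class of homeobox genes, was lower. PBX3 (chromosome 9, 125747345 to 125967377) had 691, 613 and 655 in DMSO and 128, 162 and 137 in the combination (log2 -2.19 ± 0.14). It kept 21.8% of its DMSO level, and the groups lay far apart. TGIF1, a corepressor of TGF-β and retinoid signalling of the same class (chromosome 18, 3411608 to 3459978), moved the other way. It had 1187, 1209 and 1154 in DMSO and 2959, 2736 and 2787 in the combination, 2.39-fold higher, and its coefficients of variation, 2.35% and 4.14%, were the smallest among members that rose. IRX6, also of the TALE class, had no DMSO reads. It reached 5.16 ± 2.09, which is at least 5.25-fold higher if the 3 DMSO libraries together are set at a floor of 3 reads.

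MSX1 was the most abundant member on a per-length scale, and its paralogue MSX2 moved in the opposite direction. MSX1, a repressor induced by BMP signals in limb, tooth and craniofacial tissue (chromosome 4, 4859666 to 4863936), had 9995, 11492 and 9252 normalised reads in DMSO and 2189, 1750.35 and 2021.5 in the combination (log2 -2.37 ± 0.12). MSX2 (chromosome 5, 174724533 to 174730893) rose from 16.8 ± 6.94 to 71.3 ± 20.1, 4.25-fold. Its log2 fold change went from 2.08 to 1.70 without DMSO replicate 1. MSX2 started far below MSX1, and all members with a DMSO mean under 50 were higher. Per 1000 bases of gene length MSX1 still stood first after the fall, at 937 against 4833 in DMSO. TGIF1 moved from the fifth place at 144 to the second at 344, and HHEX from 26.8 to the third at 154, while HOXA5 and HOXA10 went from 393 and 296 to 70.2 and 69.5. The last 2 did not differ beyond their spread in the combination.

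HMX2 and HMX3, paired genes of the inner ear and hypothalamus, lie 10380 bases apart on chromosome 10 on the same strand and moved in opposite directions. HMX2 (123148122 to 123150672) had 58.6, 44.1 and 56.6 in DMSO and 0, 8.34 and 1.92 in the combination, 161 reads against 11 in all. Its log2 fold change of -4.16 ranged from -4.97 to -3.36 with a library left out and was -2.27 with 10 added to each value. HMX3 (123135962 to 123137741) had 0.977, 0 and 0 in DMSO and 49.3, 38.0 and 49.8 in the combination, 1 read against 138. The ratio for HMX3 was 140.4, with a 95% exact counting interval from 24.5 to 5515. Neither gene overlaps another gene of GENCODE release 29. The groups of each gene lay far apart, and whether the 2 changes are linked was not tested. With 1 DMSO read, HMX3 could hardly have been listed as lower.

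Several tissue regulators fell from middle levels. MEOX1, a somite factor (chromosome 17, 43640388 to 43661954), had 352, 321 and 251 in DMSO and 27.4, 16.7 and 25.9 in the combination, which left 7.57% of its level (log2 -3.68 ± 0.24). SIX2, which maintains kidney progenitors (chromosome 2, 45005161 to 45009430), went from 64.5 ± 23.1 to 5.18 ± 1.74. LHX2, a LIM-homeodomain factor of the forebrain, eye and hair follicle (chromosome 9, 124001670 to 124033301), had 361, 359 and 342 in DMSO and 147, 112 and 159.9 in the combination (log2 -1.35 ± 0.16). ZHX1, a zinc finger and homeobox repressor (chromosome 8, 123248451 to 123275541), had 876, 805 and 944 in DMSO and 215, 359 and 328 in the combination (log2 -1.57 ± 0.18). LHX2 and ZHX1 had the smallest falls of the 14.

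HHEX was the largest fold rise among members with at least 50 normalised reads in DMSO. HHEX, a repressor of early endoderm and blood (chromosome 10, 92689951 to 92695646), had 68.4, 71.6 and 63.0 in DMSO and 343, 413 and 409.9 in the combination, 5.75-fold higher. NKX3-2, a factor of cartilage (chromosome 4, 13540830 to 13545050), rose from 37.1, 39.5 and 39.5 to 128, 100.1 and 122, 3.01-fold. TLX3, which specifies excitatory sensory neurons of the spinal cord (chromosome 5, 171309284 to 171312134), rose from 50.8, 64.3 and 60.8 to 166.6, 100.999 and 148.4, 2.37-fold. HMBOX1, a telomere-binding protein (chromosome 8, 28890394 to 29064764), had 186, 185 and 213 in DMSO and 316, 578 and 438 in the combination, 2.28-fold higher with a wide spread in the treated libraries. HMBOX1 overlaps a listed noncoding gene on its own strand.

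The remaining members that rose were developmental genes with few reads. PDX1, the pancreatic master regulator (chromosome 13, 27920020 to 27926231), had no DMSO reads and 21.5 ± 3.77 in the combination, at least 21.9-fold higher against the same floor. DLX3 of skin and tooth went from 9.90 ± 1.60 to 48.4 ± 6.84 and ALX4 of the skull from 15.4 ± 8.13 to 51.9 ± 12.0. Of the LIM class ISL2, a motor neuron gene, went from 7.06 ± 3.51 to 38.7 ± 2.57, LHX6, an interneuron gene, from 14.5 ± 5.34 to 57.9 ± 18.9, and LHX5 from 3.44 ± 3.24 to 17.8 ± 3.78. NKX2-8, LBX2, HLX and NKX2-4 had DMSO means of 4.42, 5.64, 2.69 and 15.0 and combination means of 21.99, 22.6, 12.7 and 35.0. LBX2 overlaps the listed gene LBX2-AS1 on the opposite strand. NKX2-8, HLX, NKX2-4, ISL2 and LHX5 also overlap genes on the opposite strand, so their reads carry the limit given for the HOX genes. Without 1 DMSO library LHX5 and NKX2-8 also moved, from 2.48 to 1.62 (replicate 3) and from 2.31 to 1.68 (replicate 2) on the log2 scale. NKX2-4 went from 1.26 to 0.881 without DMSO replicate 1. Median normalised counts of the 22 members that rose were 8.48 in DMSO and 47.0 in the combination, so many of them remained low.

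Direction differed with the starting level, a split that the listing itself favours. A gene with few DMSO reads can hardly be listed as lower, and the DMSO values enter both the level and the change. The split is therefore a description and was not tested. All 18 members with a DMSO mean under 50 were higher, and of the 18 with a mean of 50 or more 4 were higher and 14 lower. Among all listed genes 84.9% of those under 50 were higher, against 41.7% at 50 or more. At a DMSO mean of 100 or more 10 of 12 members were lower (HMBOX1 and TGIF1 were the others), and 38.7% of all such genes were higher. The plot of DMSO level and change shows the members inside the cloud of all listed genes.

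**Figure D3:**
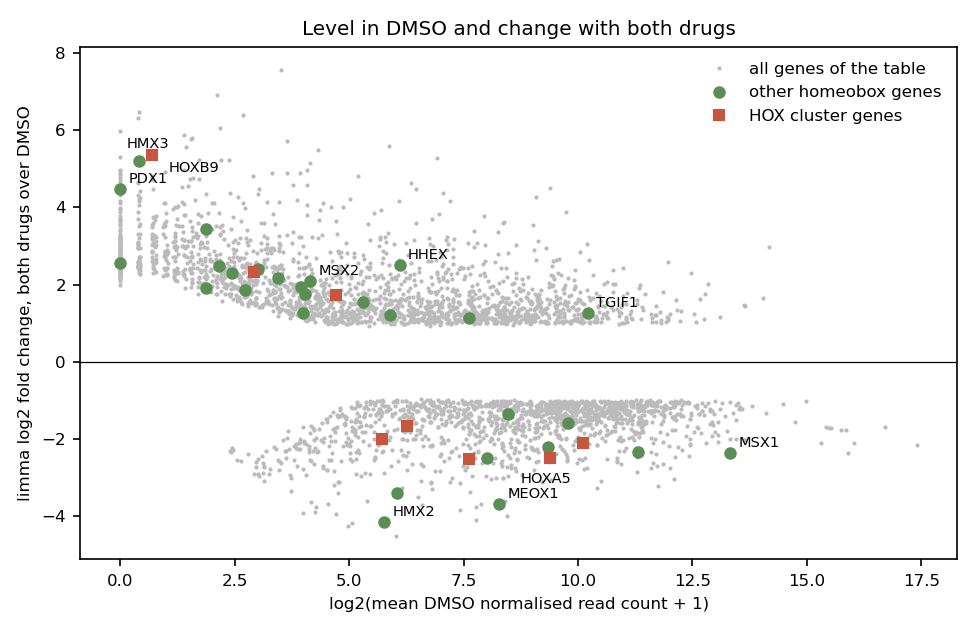
The x axis is log2 of the mean DMSO normalised read count plus 1 and the y axis the limma log2 fold change of both drugs over DMSO (squares, HOX cluster genes; large circles, other homeobox genes; small grey points, all 3508 listed genes). Members at the left are all above 0, and most at the right, from HOXA5 to MSX1, lie below 0.

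The treated libraries did not contribute evenly. Combination replicate 1 was the most changed of the 3 in 21 of 36 members (58.3%), against 45.7% of all genes in the table. Without it all 36 members kept their direction and 35 were called by limma, HOXB6 being the exception. Scaling each library by the median ratio over the listed genes shifted the log2 fold changes of all genes by -0.80 at the median. Every member kept its direction under that scaling, but 4 of those that rose, HMBOX1, TLX3, HOXB6 and NKX2-4, were no longer called.

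Few homeobox genes were in the much shorter single-drug tables. The ezetimibe table had 2 of 472 genes with this family name, LHX9 and HMX2, both lower, and the fenofibrate table had 0 of 102. These are 0.424% and 0% of the genes listed, against 1.03% of the combination table, and whether the shares differ was not tested. Limma called 99.8% of the ezetimibe table, 77.5% as higher and 22.2% as lower, on the libraries that chose its genes. For fenofibrate it called 100%, with 91.2% higher and 8.82% lower. LHX9, a LIM-homeodomain factor of the gonad and brain (chromosome 1, 197911902 to 197935478), had 250.1, 258 and 263 in DMSO, 108, 121 and 127 with ezetimibe and 40.6, 44.5 and 48.8 with the combination. HMX2 had 21.7, 18.6 and 20.0 with ezetimibe, between its DMSO and its combination values. In both genes the 3 groups were separate, with ezetimibe in the middle. Both comparisons use the same DMSO libraries, and the log2 fold changes against them were -1.11 ± 0.13 with ezetimibe and -2.50 ± 0.17 with the combination for LHX9, and -1.36 ± 0.24 and -4.16 ± 0.67 for HMX2.

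The combination against ezetimibe alone was not used to list any gene and could be tested in the 359 genes of both tables, after these were put on one scale through their DMSO libraries. LHX9 was at 37.7% of its ezetimibe level in the combination (log2 difference -1.39 ± 0.15, limma adjusted p = 3.88e-06, lower in 3 of 3 libraries). HMX2 was at 17.1% (log2 difference -2.80 ± 0.61, limma adjusted p = 0.00130, lower in 3 of 3 libraries). Of the 359 genes 63.2% were called in this comparison, 53.2% as higher and 10.0% as lower. The same libraries had entered the listings of both tables. The size for HMX2 depends on the few reads left, with a log2 difference of -3.62 without combination replicate 2, -2.01 without combination replicate 1 and -1.21 with 10 added to each value. Over all 15 settings for LHX9 and 14 for HMX2 the largest adjusted p was 6.25e-05 and 0.00623. No member was in the fenofibrate table, so the combination was not compared with fenofibrate alone.

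**Figure D4:**
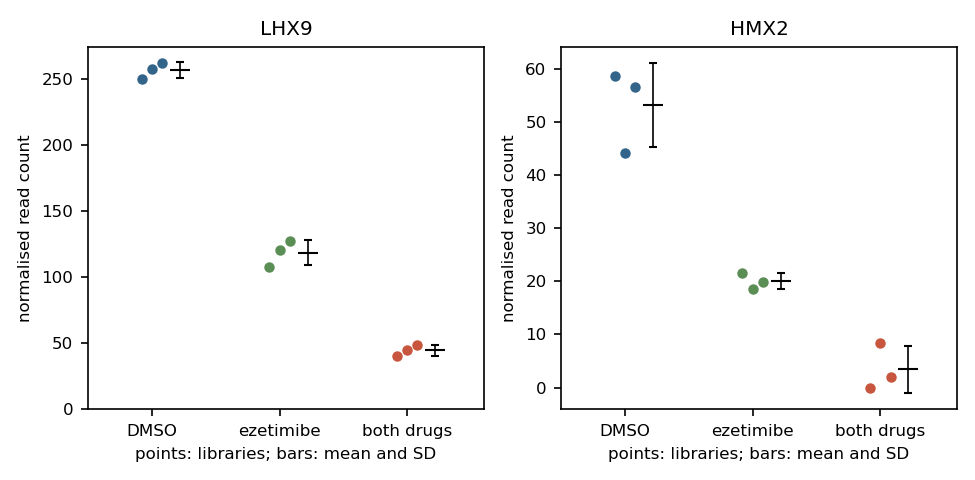
The y axes are normalised read counts of LHX9 (left) and HMX2 (right) in the 3 libraries of each of DMSO, ezetimibe and both drugs, with the ezetimibe values scaled to the combination table (points, libraries; bars, mean and SD). In both genes the ezetimibe libraries lie below all DMSO libraries and above all libraries with both drugs.

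Some regulators of homeobox genes were listed. The share of all genes that was listed is not known here, so the counts do not say whether regulators were listed often or rarely. Of 36 Polycomb genes, which keep HOX clusters silent, 3 were higher and 1 lower with the combination, and of 23 trithorax genes and histone demethylases 1 was higher and 1 lower. KDM6B, a demethylase of the Polycomb mark, rose 4.74-fold (3194 ± 54.1 against 674 ± 109.8), and the Polycomb reader subunit CBX2 was left at 19.0% of DMSO (163 ± 27.1 against 857 ± 110.3). PCGF1 and EZH1 had 456 ± 67.9 against 203 ± 14.2 and 598 ± 50.5 against 289 ± 33.6, and CBX7 had 65.4 ± 9.31 against 32.0 ± 4.30. MLLT3, a partner of the trithorax protein KMT2A in leukaemia fusions, was lower (63.8 ± 19.2 against 165 ± 13.2). The median log2 fold change of the 4 listed Polycomb genes was 1.03, beside 1.16 for the table.

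Of 20 retinoic acid genes, a pathway that activates HOX genes in the embryo, 3 were listed and all were lower. The receptor RARG went from 195 ± 20.2 to 52.5 ± 4.58 and the retinol dehydrogenase RDH10 from 1128 ± 80.1 to 427 ± 73.6. Of 22 genes of BMP signalling, which induces MSX and DLX genes, 6 were lower and 1 higher, with a median log2 fold change of -1.85. Of the listed MSX and DLX genes MSX1 was lower, and MSX2 and DLX3 were higher. The ID genes, direct BMP targets that block basic helix-loop-helix factors, were left at 10.8% (ID1), 16.9% (ID2) and 16.4% (ID3) of DMSO. The ligand gene BMP2 rose 6.26-fold from a low level (148 ± 17.0 against 23.7 ± 6.54), while SMAD6, BMPR1A and BMPR2 were lower. With ezetimibe alone 4 of the 22 were listed, all lower. Of 10 further genes, a mixed list of geminin, its partner CDT1, coactivators, CCAAT-binding NF-Y subunits and cell cycle genes, 2 were listed. Geminin (GMNN), which binds HOX proteins and a replication factor, went from 1343 ± 59.9 to 497 ± 27.0, and CDKN1A, a cell cycle inhibitor, was 2.58-fold higher. The counts of these lists stand beside 58.7% higher and 41.3% lower in the whole table. Whether these genes, or those of the Polycomb and trithorax lists, are linked to the changes of the homeobox genes was not tested.

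Compared with other transcription factor families of the same table, homeobox genes stood between those that mostly rose and those that mostly fell. Of 103 C2H2 zinc finger genes 81 were higher (78.6%), and of 17 bZIP genes 15 (88.2%). Of 15 basic helix-loop-helix genes 9 were higher (60%), near the homeobox share, and of 10 forkhead genes 2 (20%). By family name, 1 of 9 HMG genes, 0 of 5 E2F genes and 6 of 11 ZBTB genes (54.5%) were higher. No test of these shares was made, because all genes were listed on the same libraries.

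**Figure D5:**
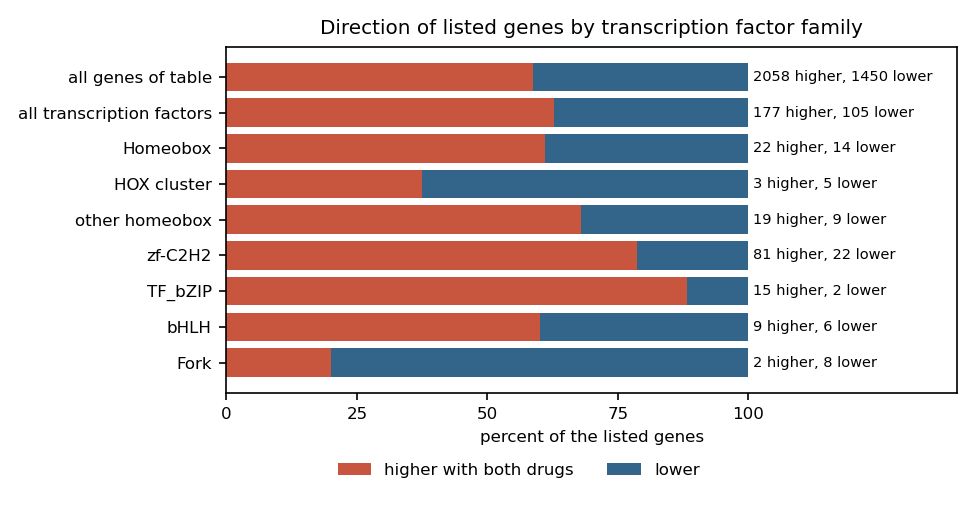
Bars show the percent of listed genes that were higher (red) or lower (blue) with both drugs for the whole table, all transcription factors, the homeobox genes and their HOX and other members, and 4 further families, with the numbers beside them. Homeobox genes (22 higher, 14 lower) lie near the whole table, with HOX cluster genes (3 higher, 5 lower) below it.

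The identity of the cells could be checked only in part. Of 31 marker genes of epithelial, breast, mesenchymal, fibroblast, endothelial, immune and neural cells 6 were in the combination table, since unchanged genes are not listed. TUBB3, 1 of 3 neural markers, was higher at a low level (20.3 ± 9.08 against 4.80 ± 3.00). KRT7, 1 of 6 epithelial markers, was higher as well (38.7 ± 9.22 against 3.82 ± 2.40). The 3 listed of 5 breast lineage markers went both ways. GATA3 (104 ± 10.5 against 25.1 ± 9.18) and FOXA1 (86.1 ± 16.3 against 26.6 ± 6.39) were higher. ERBB2, the most abundant of the 3, was lower (1223.5 ± 73.3 against 2951 ± 285). The collagen gene COL1A1, 1 of 5 fibroblast markers, was lower (262 ± 15.2 against 1021 ± 158). Of the 4 mesenchymal, 4 immune and 4 endothelial markers 0 were listed. Their part in the changes of the homeobox genes was not tested.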

How the data were processed

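RNA sequencing libraries of Cal51 cells were grouped by the labels, 3 per group. Per the submitters' processing notes, the tools were featureCounts 1.5.0-p3, HISAT2 2.0.5 and fastp and the build hg38. No source used here names the comparison tool. The deposited signal columns, per the file headers and values, are read counts multiplied by 1 factor per library, set by the authors in each table (0.918 to 1.10 in the combination table, where 100% of values divided to whole reads within 0.01). The authors' log2 fold changes and p-values are deposited beside them, with gene length among the other columns. All 36 members had the positions of GENCODE release 29. Of them 16 overlap no other gene, 11 overlap one on their own strand and 18 one on the opposite strand. Reads of every overlapping member carry the limit given for the HOX genes.

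The members and gene lists were chosen with earlier results of these data known. The rule was to name all members (some items are not reported here), with values in every library for HOX genes, members in 2 tables and members with a mean of at least 100. Limma 3.58.1 (trend, R 4.3.3) was fitted to log2(value + 1) over whole tables with Benjamini-Hochberg adjustment at 0.05, all tests 2-sided, and tested on simulated data. Alternatives were other added values, a filter on low values, other scaling, a replicate block, each library left out, edgeR 4.0.16 and DESeq2 1.42.0. No permutation test was run, as 3 against 3 cannot reach 0.05. Counting intervals and floors cover counting error only.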

Additional observations from a re-analysis of the deposited data

How the results depend on the processing

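Of 497 values of single members under other settings 491 kept their direction and their side of the threshold, and 6 kept their direction but were no longer called (HMBOX1, TLX3 and NKX2-4 with median ratio scaling, and HOXB6 with that scaling and without combination replicate 1 or 3). The 36 called members became 17 among genes with a mean of at least 50 (6 higher in place of 22), the 2 called with ezetimibe became 1, and the 2 called in the combination against ezetimibe became 1, because fewer genes were tested. With each library left out in turn 35 to 36 members were called against DMSO with the combination, 21 to 22 as higher and 14 as lower, 2 with ezetimibe and 2 in the combination against ezetimibe. The median of the HOX genes minus that of other members, -3.49 on the log2 scale, was -2.49 with 10 added, -0.63 with the filter and -3.57 to -3.32 with a library left out. With the filter the median of other members reversed from 1.66 to -1.46, since many genes that rose have few reads. The members called higher went from 22 to 18 with median ratio scaling, and all genes called higher from 2058 to 1535. With 10 added all 36 members kept their direction, and in 13 of them the log2 fold change became over 1.5 times smaller. Replicate numbers gave no clear sign of pairing. Deviations of same-numbered DMSO and combination libraries correlated at 0.09, -0.33 and 0.16 over 2303 genes, and not every library correlated best with its own number. With 3 libraries per group these values cannot show whether the libraries were handled in pairs. A replicate block kept 36 members called, 2 with ezetimibe and 2 in the combination against ezetimibe. EdgeR and DESeq2 were run on the combination table only, and comparisons with fenofibrate had no members. Few reads limit what can be said of members under about 10 normalised reads in DMSO.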

Other observations

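Another 5 homeobox genes among those listed with the combination carry a different family name and are not among the 36 members. ONECUT1, a hepatic and pancreatic factor with the family name CUT, went from 68.6 ± 9.16 in DMSO to 13.4 ± 2.11 with the combination, and POU3F2 from 24.8 ± 5.33 to 7.64 ± 4.14. TSHZ1, named as a zinc finger gene, went from 267 ± 30.03 to 131 ± 42.5. MKX, a tendon regulator with 0 reads in DMSO, reached 31.0 ± 10.7, at least 31.5-fold higher if DMSO is set at 3 reads in all, and POU2F3, the regulator of tuft cells, went from 1.78 ± 3.08 to 16.6 ± 9.46. They were named after their values were seen.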
